A study of Brassica napus with 18 samples.

Results

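The 10 GRP3 genes of rapeseed (Brassica napus) described here are gene models whose Swiss-Prot description begins "Glycine-rich protein 3". They were chosen by that description and by their level, as the expressed copies among 13 genes with the description, out of 108207 genes in the table. Of the 3 genes left out, BnaC07G0083900ZS ranged from 0 to 10.1 TPM (transcript abundance scaled for gene length and library total) with a mean of 2.30 TPM over 18 libraries, BnaA04G0199600ZS reached at most 0.61 TPM and BnaC04G0505400ZS was listed at 0 throughout. The lowest mean among the 10 was 4.11 TPM, in BnaC03G0480200ZS. Because level chose the members, their levels, their sum and their shares of that sum are a description and carry no test. Libraries came from the aboveground part of seedlings, labelled leaf, grown for 3 weeks in Hoagland's solution, with 3 libraries in each of 6 groups. The groups are 1 line of the bnagrp3 mutant in mock, after 4 h and after 8 h of 200 mM NaCl, and wild type (WT) in mock, after 4 h and after 8 h of 200 mM NaCl. The labels give neither the mutated copies, the kind of mutation nor the cultivar of the WT, and the mock columns are headed 0 h, so no mock is matched in time to the salt samples.

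GRP3 proteins are small and glycine-rich, and enter the secretory pathway through a signal peptide. In Arabidopsis, GRP3 binds the extracellular domain of the wall-associated receptor kinase WAK1, which spans the plasma membrane and holds to cell wall pectin. The kinase-associated protein phosphatase KAPP is found with WAK1 and GRP3 there. Rapeseed carries an A and a C subgenome, so most Arabidopsis genes have several counterparts. BnaA03G0387900ZS was the 1 member matched to the full-length GRP3, and the other 9 matched its short isoform. A second protein database named 4 of the 10 otherwise: BnaC07G0084100ZS was called CORA-like, while BnaC07G0084200ZS, Bnascaffold0025G0035900ZS and a gene model that the submitters added without a chromosome position were called dormancy-associated protein 2-like. That last member is called the unplaced GRP3 gene model here.

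TPM sum to a fixed total in each library and keep no read depth, so the depth is unknown. No 2 libraries were identical. Leaf markers were high throughout and lower after salt. Summed Rubisco small subunit transcripts were at 71422 to 77465 TPM in mock, 33087 to 33558 TPM at 4 h and 24016 to 27979 TPM at 8 h in bnagrp3, against 63894 to 78702, 33736 to 36987 and 20749 to 24289 TPM in WT. Summed chlorophyll a-b binding protein transcripts, in the same order, were at 88528 to 92734, 50059 to 53310 and 47790 to 52368 TPM in bnagrp3, against 75666 to 78297, 45440 to 50337 and 42125 to 45789 TPM in WT, with the genotypes apart in mock and at 8 h. The part of these levels in the GRP3 results was not tested. In contrast, 8 genes of Casparian strip membrane protein 1, a root endodermis marker, summed to at most 0.15 TPM. Of the seed markers, cruciferin summed to at most 0.2 TPM in any of the 18 libraries. Napin summed to 0 to 0.22 TPM in the bnagrp3 libraries and 0.76 to 2.69 TPM in the WT libraries, with 2 of its 13 genes reaching 1 TPM. WT libraries differed in their level of 326 transcripts, chosen after values were seen, that were at 5 TPM or more in each of the 9 bnagrp3 libraries and at 0.2 TPM or less in 2 or more WT libraries. The median ratio of these transcripts to the bnagrp3 mean was 0.231, 0.254 and 0.214 in WT mock, 0, 0.670 and 0.233 in WT at 4 h, and 0.168, 0 and 0.369 in WT at 8 h, for replicates 1, 2 and 3. WT 4 h replicate 2 and WT 8 h replicate 3 had the highest ratio of their groups. The rule that chose the 326 favours low WT values, so the ratio is a description of these transcripts only. For either library left out alone, calls of the 10 genes that changed are given or counted below. The labels do not say that replicates are separate plants, so p-values measure the spread between these libraries, and fewer cells of a type cannot be told apart from less RNA per cell.

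The pair BnaC03G0480300ZS and BnaA03G0387800ZS supplied most GRP3 transcripts in every library, and both were lower in bnagrp3 in mock and after 8 h. They ranked 16 and 39 by mean TPM among all genes. BnaC03G0480300ZS had 1313, 1369.9 and 1046 TPM in bnagrp3 mock, 2339, 2202 and 2272 TPM at 4 h, and 2883, 3067 and 2907 TPM at 8 h. In WT it had 1879, 1676 and 1898 TPM in mock, 3381, 2129 and 3172 TPM at 4 h, and 4178, 4391 and 3977 TPM at 8 h. The genotypes did not overlap in mock or at 8 h, and at 4 h WT replicate 2 lay below all 3 bnagrp3 libraries while the other 2 WT libraries lay above them. On the scale of log2(TPM + 1), used for every log2 difference here and understating changes of weakly expressed genes, the difference between bnagrp3 and WT was -0.56 in mock (SE 0.14, limma adjusted p = 0.0114), -0.32 at 4 h (SE 0.14, adjusted p = 0.116) and -0.50 at 8 h (SE 0.14, adjusted p = 0.0181). Without WT 4 h replicate 2 the difference at 4 h was -0.53 (limma adjusted p = 0.00145). The mock call was lost without bnagrp3 mock replicate 3 (adjusted p = 0.0591), and the 8 h call was lost without bnagrp3 replicate 1 (0.0559), bnagrp3 replicate 3 (0.0524) or WT replicate 2 (0.0671), and neither passed when no filter on low values was used (adjusted p = 0.0632 in mock and 0.0890 at 8 h).

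BnaA03G0387800ZS had a lower level than BnaC03G0480300ZS in every library. Its values were 872, 932 and 684 TPM in bnagrp3 mock, 1283, 1265 and 1319 TPM at 4 h, and 1613, 1774 and 1652 TPM at 8 h. WT libraries had 1283, 1306 and 1401 TPM in mock, 2054, 1269 and 1852 TPM at 4 h, and 2401, 2627 and 2279 TPM at 8 h. WT 4 h replicate 2 lay among the bnagrp3 values, and the groups were apart in mock and at 8 h. The bnagrp3 mean was 0.623 of the WT mean in mock, 0.747 at 4 h and 0.690 at 8 h. The log2 difference was -0.69 in mock (SE 0.15, limma adjusted p = 0.00355), -0.39 at 4 h (SE 0.15, adjusted p = 0.0671) and -0.53 at 8 h (SE 0.15, adjusted p = 0.0154). Leaving out WT 4 h replicate 2 moved the 4 h difference to -0.60 (limma adjusted p = 0.00115), and the 8 h call was lost without bnagrp3 replicate 1 (adjusted p = 0.0534) or WT replicate 2 (0.0662).

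**Figure D1:**
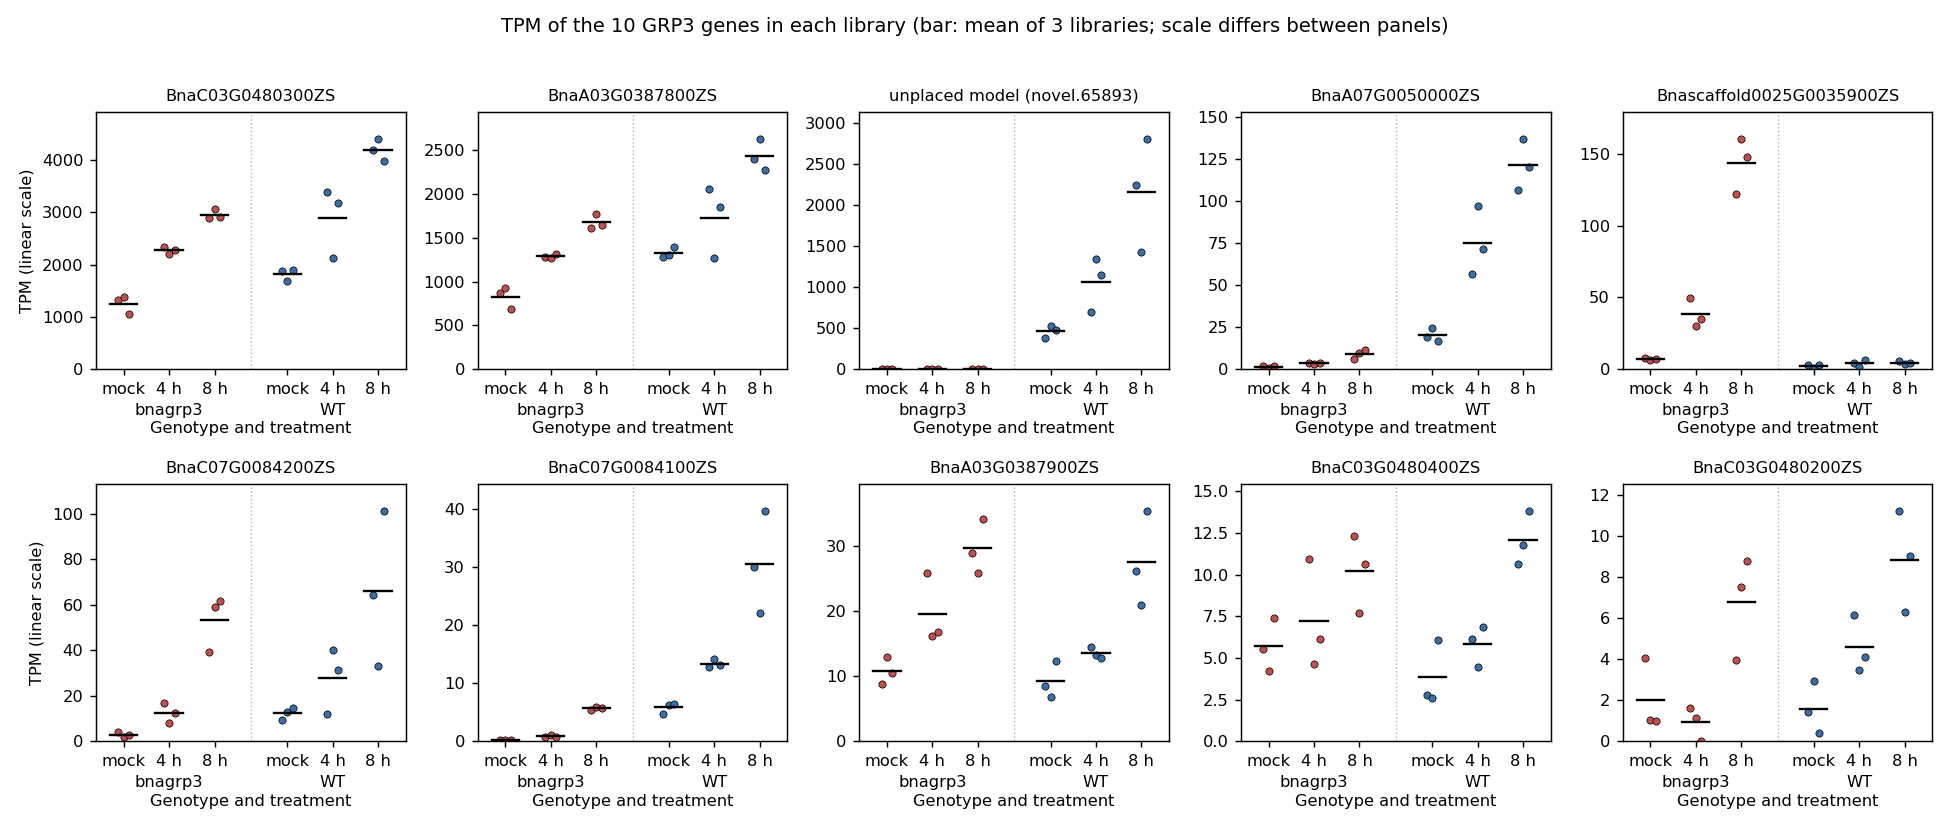
TPM of each GRP3 gene (linear vertical axis, scaled per panel) by genotype and treatment, with bnagrp3 libraries in red, WT libraries in blue and a bar for the mean of 3 libraries. BnaC03G0480300ZS and BnaA03G0387800ZS lie highest in both genotypes, the unplaced gene model and BnaA07G0050000ZS are near the floor in bnagrp3, and Bnascaffold0025G0035900ZS is high in bnagrp3 after salt, at 122 to 160 TPM after 8 h.

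The sharpest genotype contrast was in the unplaced GRP3 gene model. It had 0, 0 and 0.5 TPM in bnagrp3 mock, 0.59, 0 and 1.16 TPM at 4 h, and 1.19, 4.39 and 4.51 TPM at 8 h. In WT it had 376, 526 and 478 TPM in mock, 695, 1339 and 1148 TPM at 4 h, and 2241, 1429 and 2799 TPM at 8 h. Every WT library lay far above every bnagrp3 library, and 3 bnagrp3 libraries listed the gene at 0. At 8 h, the 1 treatment in which both genotypes had at least 2 libraries at 1 TPM, the log2 difference was -9.01 (SE 0.38, limma adjusted p = 4.35e-10). It belongs to 188 genes, chosen after values were seen, that were at 5 TPM or more in each of the 9 WT libraries and at 0.2 TPM or less in 2 or more bnagrp3 libraries. The median ratio of these 188 genes to the WT mean was 0 in every bnagrp3 library. The rule that chose them favours such low values, so the ratio is a description only. Within WT at 4 h and at 8 h, the unplaced model ran in the same order of libraries as the level of the 326 transcripts, while BnaC03G0480300ZS and BnaA03G0387800ZS ran in the opposite order. In WT mock the opposite order held for BnaC03G0480300ZS, but the orders did not hold for the unplaced model or BnaA03G0387800ZS. The part of these transcripts in the GRP3 values was not tested.

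BnaA07G0050000ZS, on chromosome A07, was far lower in bnagrp3 than in WT in every treatment. Its bnagrp3 values were 1.91, 0.88 and 1.63 TPM in mock, 4, 3.22 and 3.96 TPM at 4 h, and 6.24, 9.43 and 11.2 TPM at 8 h. WT libraries held 19.2, 24.4 and 16.9 TPM in mock, 56.5, 97.0 and 71.6 TPM at 4 h, and 107, 137 and 120.4 TPM at 8 h. The highest bnagrp3 library, after 8 h of salt, remained below the lowest WT mock library. The bnagrp3 mean was 0.0730 of the WT mean in mock, 0.0497 at 4 h and 0.0739 at 8 h, with log2 differences of -3.11, -3.98 and -3.64 (SE 0.23 each, limma adjusted p = 2.25e-07, 1.13e-08 and 2.87e-08). All 10 genes next to it in identifier order stayed under the filter on low values, at most 1.68 TPM in any library, so its surroundings give no second measure.

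Both expressed C07 copies, with neighbouring identifiers, were lower in bnagrp3 without salt but differed in how they compared after it. BnaC07G0084100ZS had 0.25, 0.17 and 0.18 TPM in bnagrp3 mock, 0.8, 1.14 and 0.79 TPM at 4 h, and 5.42, 5.95 and 5.8 TPM at 8 h. In WT the same gene had 4.73, 6.26 and 6.48 TPM in mock, 12.8, 14.1 and 13.1 TPM at 4 h, and 30.04, 22.0 and 39.6 TPM at 8 h. No bnagrp3 library reached the WT library of the same treatment, and at 8 h, where both genotypes could be tested, the log2 difference was -2.19 (SE 0.16, limma adjusted p = 1.74e-07). BnaC07G0084200ZS had 4.16, 1.86 and 2.7 TPM in bnagrp3 mock, 16.7, 8.11 and 12.6 TPM at 4 h, and 39.3, 58.9 and 61.6 TPM at 8 h. WT values for this gene were 9.44, 12.99 and 14.7 TPM in mock, 11.9, 39.9 and 31.1 TPM at 4 h, and 64.3, 32.9 and 100.95 TPM at 8 h. The genotypes were apart in mock and overlapped after salt, with log2 differences of -1.80 (SE 0.44, limma adjusted p = 0.0091), -0.98 (SE 0.44, adjusted p = 0.122) and -0.19 (SE 0.44, adjusted p = 0.811). Without WT 4 h replicate 1, the lowest of its group, the 4 h difference was -1.48 (limma adjusted p = 0.0234).

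Bnascaffold0025G0035900ZS went the other way: it was the 1 member called higher in bnagrp3, in all 3 treatments. In bnagrp3 it had 7.67, 6.13 and 7.07 TPM in mock, 49.9, 29.9 and 35.3 TPM at 4 h, and 122, 160.2 and 148 TPM at 8 h. WT libraries had 3.21, 0.9 and 2.61 TPM in mock, 4.14, 1.3 and 6.56 TPM at 4 h, and 5.5, 3.58 and 4.07 TPM at 8 h. The groups were apart at every treatment, and the lowest bnagrp3 library at 8 h exceeded the highest WT library by over 100 TPM. Log2 differences were 1.37 in mock (SE 0.36, limma adjusted p = 0.0149), 3.11 at 4 h (SE 0.36, adjusted p = 2.44e-05) and 4.75 at 8 h (SE 0.36, adjusted p = 3.00e-07). The mock call rests on WT mock replicate 2, the lowest, without which the difference was 1.02 (limma adjusted p = 0.0665).

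The 3 remaining members were weakly expressed, and 1 of their genotype differences passed the test. BnaA03G0387900ZS had 8.8, 12.9 and 10.5 TPM in bnagrp3 mock, 25.8, 16.1 and 16.7 TPM at 4 h and 28.9, 25.9 and 34.1 TPM at 8 h, against 8.54, 6.82 and 12.4 TPM, 14.5, 13.3 and 12.7 TPM, and 26.2, 20.9 and 35.3 TPM in WT. BnaC03G0480400ZS ranged from 4.21 to 12.3 TPM in bnagrp3 and from 2.61 to 13.8 TPM in WT. For both genes no genotype difference passed the test, with log2 differences between -0.24 and 0.52. At 4 h the BnaA03G0387900ZS groups did not overlap, with bnagrp3 higher (0.47, SE 0.23, limma adjusted p = 0.151). BnaC03G0480200ZS had 4.05, 1.05 and 0.98 TPM in bnagrp3 mock, 1.64, 1.15 and 0 TPM at 4 h and 3.95, 7.51 and 8.79 TPM at 8 h, against 1.4, 2.93 and 0.39 TPM, 6.14, 3.47 and 4.1 TPM, and 11.2, 6.31 and 9.02 TPM in WT. It was lower in bnagrp3 at 4 h, where the groups did not overlap, with a log2 difference of -1.61 (SE 0.46, limma adjusted p = 0.0200). That call was lost without bnagrp3 4 h replicate 3, the library at 0 (-1.20, adjusted p = 0.0952), without WT 4 h replicate 1 (-1.42, 0.0810) or when the 2 groups were fitted alone (0.0623).

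Counted together, the genotype comparison in mock could be tested for 8 members, those at 1 TPM or more in at least 2 libraries of each group. Of these, 1 was higher in bnagrp3, 4 were lower and 3 did not pass, where 21.5% of all 57923 genes tested were called, 9.1% higher and 12.4% lower. Here and below, the shares of all genes cover every gene kept by the filter, without the rule of 2 libraries in each group. Members and all genes are therefore not counted by the same rule. At 4 h, 1 of 8 was higher and 2 were lower, against 9.89% higher and 13.7% lower among all genes (23.6% called). Without WT 4 h replicate 2, 5 of the 8 members were called at 4 h in place of 3. At 8 h all 10 could be tested, of which 1 was higher and 5 were lower, against 11.4% and 12% of all genes (23.4% called).

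The summed TPM of the 10 genes, the GRP3 pool, was lower in bnagrp3 in every treatment. It averaged 2102 ± 301 TPM in mock, 3644 ± 102 TPM at 4 h and 4893 ± 208 TPM at 8 h in bnagrp3, against 3663 ± 150, 5823 ± 792 and 9045 ± 350 TPM in WT (SD, n = 3 each). The bnagrp3 pool was thus 0.574, 0.626 and 0.541 of the WT pool. With the unplaced gene model left out, these ratios were 0.656, 0.765 and 0.710, since that gene made up 10.5% to 29.8% of the WT pool and at most 0.0931% of the bnagrp3 pool. Without it the genotypes overlapped at 4 h, at 3532 to 3732 TPM in bnagrp3 and 3571 to 5547 TPM in WT. BnaC03G0480300ZS and BnaA03G0387800ZS together made up 94.1% to 98.8% of the pool in bnagrp3 libraries and 66.7% to 88.1% in WT libraries. Outside this pair, the other 8 genes summed to 30.2 ± 2.67, 83.8 ± 23.9 and 261 ± 36.7 TPM in bnagrp3, against 515 ± 81.1, 1205 ± 361 and 2427 ± 732 TPM in WT. The pool amounted to 0.176% to 0.938% of all TPM in a library.

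**Figure D2:**
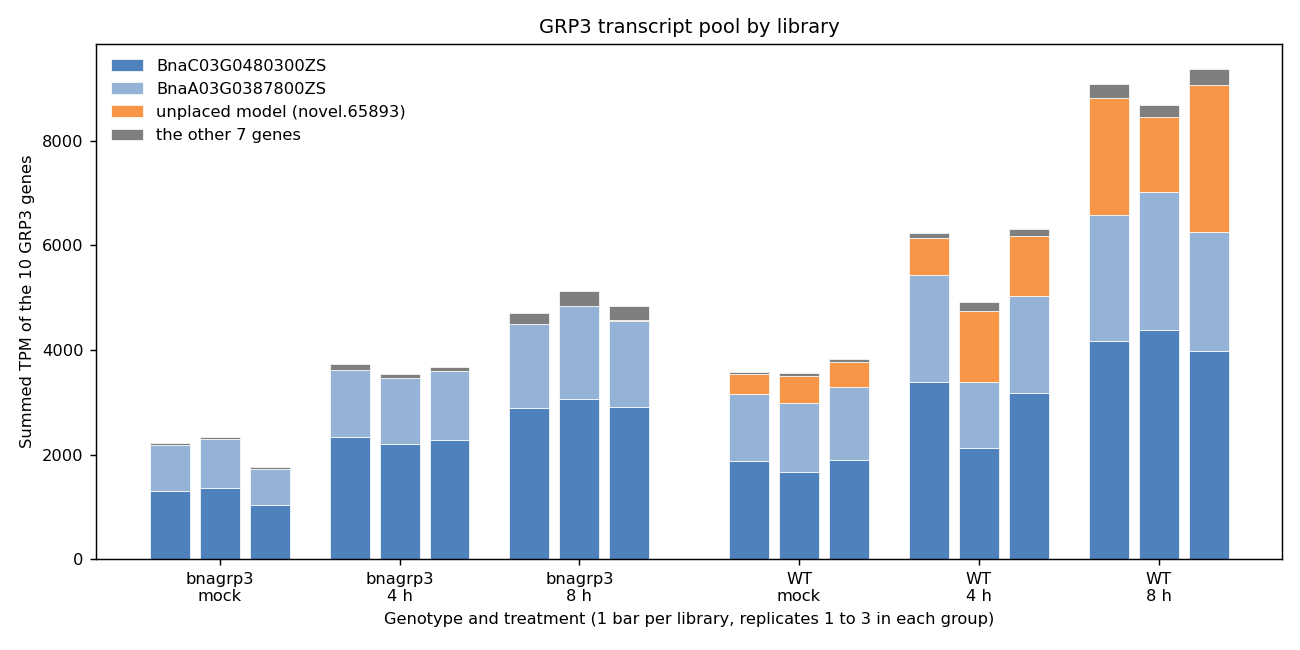
Summed TPM of the 10 GRP3 genes (vertical axis, from 0) in each library, 1 bar per library, stacked by gene. The pool averages 4893 TPM in bnagrp3 and 9045 TPM in WT after 8 h, and the orange part, the unplaced gene model, is visible in WT and not in bnagrp3.

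GRP3 transcripts were higher after NaCl in both genotypes. The pool ratio of NaCl to mock was 1.73 at 4 h and 2.33 at 8 h in bnagrp3, and 1.59 and 2.47 in WT. Both salt times are compared with the same mock libraries. In bnagrp3 at 4 h, 6 of the 8 members that could be tested rose and none fell, where 52.2% of all genes were called, 28.7% higher and 23.5% lower. At 8 h all 8 rose, where 31.3% of all genes were higher and 18.4% lower (49.7% called). In WT, 5 of 10 rose at 4 h, where 26% of all genes were higher and 20.5% lower (46.6% called), and 9 of 10 rose at 8 h, where 29% were higher and 17.3% lower (46.3% called). Without WT mock replicate 1 or WT 4 h replicate 3, the WT count at 4 h was 3. The median log2 change of all genes was 0.14 at 8 h in each genotype, and rescaling by median of ratios brought it to 0.01 in each; under that rescaling BnaC03G0480400ZS in bnagrp3 at 8 h no longer passed (0.58, limma adjusted p = 0.123).

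The abundant pair rose in both genotypes by 8 h. For BnaC03G0480300ZS the log2 change at 4 h was 0.88 in bnagrp3 (SE 0.14, limma adjusted p = 9.87e-05) and 0.64 in WT (SE 0.14, adjusted p = 0.00165), and at 8 h it was 1.26 in bnagrp3 (adjusted p = 3.81e-06) and 1.20 in WT (adjusted p = 6.40e-06). For BnaA03G0387800ZS the changes were 0.65 at 4 h and 1.03 at 8 h in bnagrp3 (SE 0.15 each, limma adjusted p = 0.00168 and 3.73e-05), and 0.35 and 0.87 in WT (SE 0.15 each, adjusted p = 0.0661 and 0.000189). NaCl and mock libraries were apart in all of these but the WT 4 h comparison of BnaA03G0387800ZS, where replicate 2 lay below the mock values. Without that library its change was 0.55 (limma adjusted p = 0.00112), and it also passed without bnagrp3 mock replicate 3 (adjusted p = 0.0475). The 4 h call of BnaC03G0480300ZS in WT was lost when the groups were fitted alone (limma adjusted p = 0.0657).

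Larger relative rises came from the less abundant copies. BnaA07G0050000ZS changed by 0.95 at 4 h and 2.00 at 8 h in bnagrp3 (SE 0.23 each, limma adjusted p = 0.00243 and 4.07e-06) and by 1.82 and 2.54 in WT (SE 0.23 each, adjusted p = 1.17e-05 and 3.87e-07), so a copy far below its WT level in the mutant still rose there. BnaC07G0084200ZS changed by 1.77 and 3.81 in bnagrp3 (SE 0.44 each, limma adjusted p = 0.00328 and 4.90e-06), and in WT by 0.96 (adjusted p = 0.0877) and 2.21 (adjusted p = 0.000782). BnaC07G0084100ZS changed by 1.08 and 2.18 in WT (SE 0.16 each, limma adjusted p = 6.47e-05 and 5.18e-08), and in bnagrp3 its 8 h libraries, at 5.42 to 5.95 TPM, lay above its mock libraries, at 0.17 to 0.25 TPM. Without WT 4 h replicate 1, BnaC07G0084200ZS passed at 4 h in WT too (1.46, limma adjusted p = 0.00957). In WT, the unplaced gene model changed by 1.16 at 4 h (SE 0.38, limma adjusted p = 0.0216) and 2.19 at 8 h (SE 0.38, adjusted p = 0.000275). Its 4 h call was lost without WT mock replicate 1 (1.03, adjusted p = 0.0731), WT 4 h replicate 2 (0.97, 0.0820) or WT 4 h replicate 3 (1.08, 0.0654), or with a pseudocount of 0.1 TPM (0.284).

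Bnascaffold0025G0035900ZS was the member whose response differed between genotypes. It changed by 2.28 at 4 h and 4.18 at 8 h in bnagrp3 (SE 0.36 each, limma adjusted p = 9.56e-05 and 2.91e-07), and by 0.54 and 0.80 in WT (SE 0.36 each, adjusted p = 0.246 and 0.0894). The 8 h WT libraries, at 3.58 to 5.5 TPM, were above the mock WT libraries, at 0.9 to 3.21 TPM. Without WT 4 h replicate 2, the lowest of its group, the WT changes were 1.02 at 4 h (limma adjusted p = 0.014) and 0.80 at 8 h (adjusted p = 0.0262). The difference of the 8 h responses, bnagrp3 minus WT, was 3.38 (SE 0.52, limma adjusted p = 0.00476), and that of the 4 h responses was 1.74 (SE 0.52, adjusted p = 0.0943). No other member's response difference passed among the 8 that could be tested, where 2.46% of all genes were called at 4 h and 1.38% at 8 h. The 4 h difference of the scaffold copy passed without WT mock replicate 2 (2.08, adjusted p = 0.0405) or WT 4 h replicate 3 (2.11, adjusted p = 0.0492). For the abundant pair the 8 h difference was 0.05 (SE 0.20) in BnaC03G0480300ZS and 0.16 (SE 0.21) in BnaA03G0387800ZS.

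Weak members rose too. BnaA03G0387900ZS changed by 0.79 and 1.39 in bnagrp3 (SE 0.23 each, limma adjusted p = 0.00865 and 0.000132) and by 0.54 and 1.48 in WT (adjusted p = 0.0661 and 8.45e-05), and its bnagrp3 4 h call was lost without 4 h replicate 1, the highest (0.58, adjusted p = 0.0512). In WT at 4 h it passed without mock replicate 3 (0.75, limma adjusted p = 0.0186) or without bnagrp3 4 h replicate 1 (adjusted p = 0.0467). At 8 h in WT, BnaC03G0480400ZS changed by 1.50 (SE 0.30, limma adjusted p = 0.000759) and BnaC03G0480200ZS by 2.03 (SE 0.46, adjusted p = 0.00209). In bnagrp3 at 8 h the same genes changed by 0.75 (adjusted p = 0.0496) and 1.44 (adjusted p = 0.0168), both close to the threshold. The first was lost in 11 of the 18 fits that left out 1 library (adjusted p up to 0.176), and the second without bnagrp3 mock replicate 2 or 3 or 8 h replicate 2 or 3 (adjusted p = 0.0523 to 0.0721). In WT at 4 h BnaC03G0480200ZS changed by 1.21 (SE 0.46, limma adjusted p = 0.0423), a call lost without any 1 of 6 libraries: WT mock replicate 3 (0.83, adjusted p = 0.188), WT 4 h replicate 1 (1.02, 0.126), WT mock replicate 1 (0.0796), WT 4 h replicate 3 (0.0736), bnagrp3 8 h replicate 2 (0.0505) or WT 8 h replicate 3 (0.0507). BnaC03G0480400ZS passed at 4 h in WT without mock replicate 3 (0.86, limma adjusted p = 0.0276).

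From 4 h to 8 h of salt, 4 of 8 members rose further in bnagrp3 and 6 of 10 in WT, and none fell, where 15.3% of all genes were called in bnagrp3 (10.3% higher) and 14.7% in WT (8.99% higher). In bnagrp3 these were Bnascaffold0025G0035900ZS (1.90, limma adjusted p = 0.0033), BnaC07G0084200ZS (2.04, 0.00648), BnaA07G0050000ZS (1.05, 0.00657) and BnaC03G0480200ZS (2.06, 0.0078). In WT the largest was BnaC07G0084100ZS (1.10, SE 0.16, limma adjusted p = 0.000547), whose call was lost under 1 alternative, the fit of these 2 groups alone (adjusted p = 0.0582). The other 5 were BnaC03G0480400ZS (0.95, limma adjusted p = 0.045), BnaA03G0387900ZS (0.94, 0.0126), BnaA07G0050000ZS (0.71, 0.0473), BnaC03G0480300ZS (0.56, 0.0161) and BnaA03G0387800ZS (0.52, 0.0265). Leaving out 1 library ended the call of BnaA07G0050000ZS in 12 of 18 fits (adjusted p up to 0.146) and that of BnaC03G0480400ZS in 10 (adjusted p up to 0.147). The call of BnaA03G0387800ZS was lost without WT 4 h replicate 2 (0.32, limma adjusted p = 0.0843), WT 8 h replicate 1 (0.0652) or WT 8 h replicate 2 (0.0905). That of BnaC03G0480300ZS was lost without WT 8 h replicate 2 (0.52, limma adjusted p = 0.0555), and that of BnaA03G0387900ZS without WT 8 h replicate 3 (0.75, adjusted p = 0.0532). BnaC07G0084200ZS (1.25, limma adjusted p = 0.0729) passed without WT 4 h replicate 2 (0.0439) or WT 8 h replicate 2 (0.0278), and the unplaced model (1.02, adjusted p = 0.0912) passed without bnagrp3 8 h replicate 1 (0.0475). In bnagrp3 BnaC03G0480300ZS and BnaA03G0387800ZS passed as well when WT 4 h replicate 2 was left out of the fit (limma adjusted p = 0.0117 and 0.0183), and BnaA03G0387900ZS without bnagrp3 4 h replicate 1 (0.81, adjusted p = 0.038). The count in WT moved most between settings: it was 3 without WT 8 h replicate 1, 2 or 3, each in turn, and 0 when the 2 groups were fitted alone.

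By level, BnaC03G0480300ZS came first and BnaA03G0387800ZS second in all 6 groups, with overlapping values between the second and the third place in WT at 4 h and 8 h. Place 3 went to the unplaced gene model in the 3 WT groups. In bnagrp3 it went to BnaA03G0387900ZS in mock and to Bnascaffold0025G0035900ZS at both salt times, with no overlap with the next gene. In WT, BnaA07G0050000ZS held place 4 and did not overlap with its neighbours, while places 5 and 6 overlapped in every treatment. The scaffold copy was last in WT after salt. In bnagrp3 the last places, held by BnaC07G0084100ZS and the unplaced model, overlapped in mock and at 4 h.

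The balance within the abundant pair differed between salt and mock. The C03 gene held 60.0 ± 0.48% of the pair's summed TPM in bnagrp3 mock, 63.8 ± 0.69% at 4 h and 63.7 ± 0.38% at 8 h. In WT it held 57.7 ± 1.62% in mock, 62.7 ± 0.47% at 4 h and 63.2 ± 0.56% at 8 h (SD, n = 3 each). In both genotypes every NaCl library lay above every mock library, by a few percentage points, and over all 18 libraries the share stayed between 56.2% and 64.6%. WT 4 h replicate 2, which was low for both genes, was not apart from its group in this share. BnaC03G0480400ZS and BnaA03G0387900ZS were taken as a further pair without a comparison of sequence. There the C03 gene held 22.2% to 41.2%, with overlap between mock and NaCl. How reads shared by near-identical copies were divided is not stated, so shares between close copies are uncertain.

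**Figure D3:**
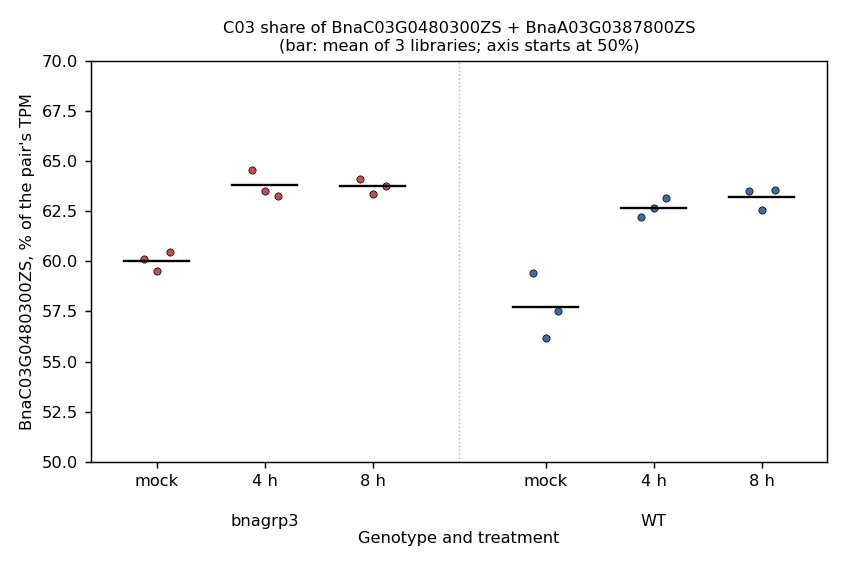
Percent of the summed TPM of BnaC03G0480300ZS and BnaA03G0387800ZS held by the C03 gene (vertical axis, from 50%) in each library, with a bar for the mean of 3 libraries. NaCl libraries lie above the mock libraries of the same genotype, at means of 62.7% to 63.8% against 57.7% to 60.0%.

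The genes around the A03 and C03 copies carry the same product names in the same order, from a glycosyltransferase (GNT2) before the GRP3 genes to OXR1, PGR5, ATG8D and ACO3 after them. Sequence was not compared, so these flanking genes are counterparts by position and name. The GRP3 genes differ in number, as the C03 stretch also holds BnaC03G0480200ZS. BnaA03G0387900ZS matched the full-length GRP3 and BnaC03G0480400ZS the short isoform. How the GRP3 genes pair is therefore not settled by position or name. In the C03 stretch PGR5 (BnaC03G0480600ZS), which acts in cyclic electron flow around photosystem I, had 13.8 ± 1.04, 8.68 ± 3.02 and 5.92 ± 2.06 TPM in bnagrp3, against 74.2 ± 7.43, 31.8 ± 14.3 and 30.3 ± 9.59 TPM in WT, for mock, 4 h and 8 h. Its log2 difference was -2.34, -1.70 and -2.17 (SE 0.35 each, limma adjusted p = 0.000276, 0.00285 and 0.000421). ACO3 (BnaC03G0480800ZS), a mitochondrial aconitase, was also lower in bnagrp3 in all 3 treatments, with log2 differences of -1.33, -0.96 and -1.04 (SE 0.17 each, limma adjusted p = 8.09e-05, 0.0011 and 0.000536). Between them, ATG8D (BnaC03G0480700ZS), an autophagy ubiquitin-like protein, was not lower, with log2 differences of 0.20, 0.36 and 0.80 (limma adjusted p = 0.511, 0.196 and 0.00734). On A03, OXR1, ATG8D, ACO3 and the gene named GNT2 passed in no treatment, and PGR5 (BnaA03G0388100ZS) was higher in bnagrp3 at 8 h by 0.61 (SE 0.13, limma adjusted p = 0.00293). None of the 3 genes tested beside the scaffold copy passed between genotypes in any treatment.

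**Figure D4:**
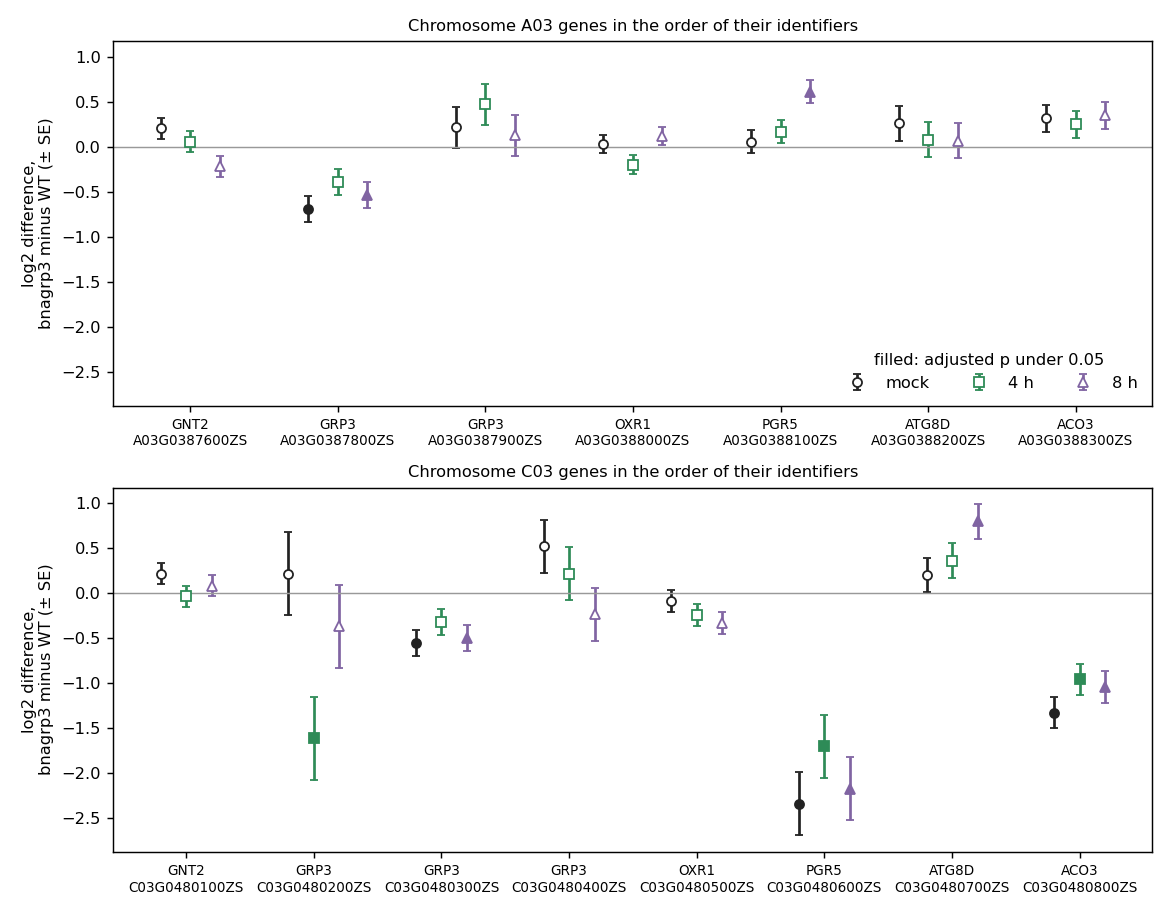
Log2 difference between bnagrp3 and WT (vertical axis, ± SE, on log2(TPM + 1)) for named genes on A03 (top) and C03 (bottom), in identifier order, in mock (circles), at 4 h (squares) and at 8 h (triangles). Filled points passed an adjusted p of 0.05; on C03, PGR5 and ACO3 lie below 0 in all 3 treatments, at -2.34 to -0.96, and their A03 counterparts do not.

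The partners of GRP3 known from Arabidopsis were measured alongside it. All 8 KAPP genes (Swiss-Prot name protein phosphatase 2C 70) could be tested, and after NaCl 6 of 8 rose in bnagrp3 at both times, and 6 of 8 rose at 4 h and 7 of 8 at 8 h in WT, with none lower. Among all genes 28.7% and 31.3% rose in bnagrp3, and 26% and 29% in WT, at 4 h and 8 h. The median log2 change of the list was 0.54 and 0.49 in bnagrp3 and 0.56 and 0.58 in WT, beside 0.06 and 0.14, and 0.05 and 0.14, for all genes. BnaA10G0293200ZS had 0.33, 0.44 and 0.16 TPM in bnagrp3 mock, 0.54, 0.22 and 0 TPM at 4 h and 0.28, 0.51 and 0.11 TPM at 8 h. In WT it had 9.6, 6.66 and 6.77 TPM in mock, 12.2, 7.99 and 13.8 TPM at 4 h and 14.5, 14.7 and 13.8 TPM at 8 h. BnaA09G0466500ZS was also lower in bnagrp3 in all 3 treatments (log2 difference -2.13, -1.92 and -2.08, SE 0.24 each, limma adjusted p = 1.73e-05, 3.74e-05 and 1.71e-05). For these 2 genes every bnagrp3 library lay below every WT library. Of the 8 genes, 2 were lower and 0 higher in bnagrp3 in mock, against 12.4% and 9.1% of all genes. At 4 h 2 were lower and 1 higher, against 13.7% and 9.89%, and at 8 h 2 and 0, against 12% and 11.4%. The 1 higher was BnaC09G0471500ZS (0.41, limma adjusted p = 0.0039). The median genotype difference of the list was 0.11, 0.05 and 0.03, beside -0.0048, -0.022 and 0 for all genes. An unplaced KAPP gene model changed by 0.63 in bnagrp3 and 0.72 in WT at 8 h (SE 0.15 each, limma adjusted p = 0.00262 and 0.000984).

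**Figure D5:**
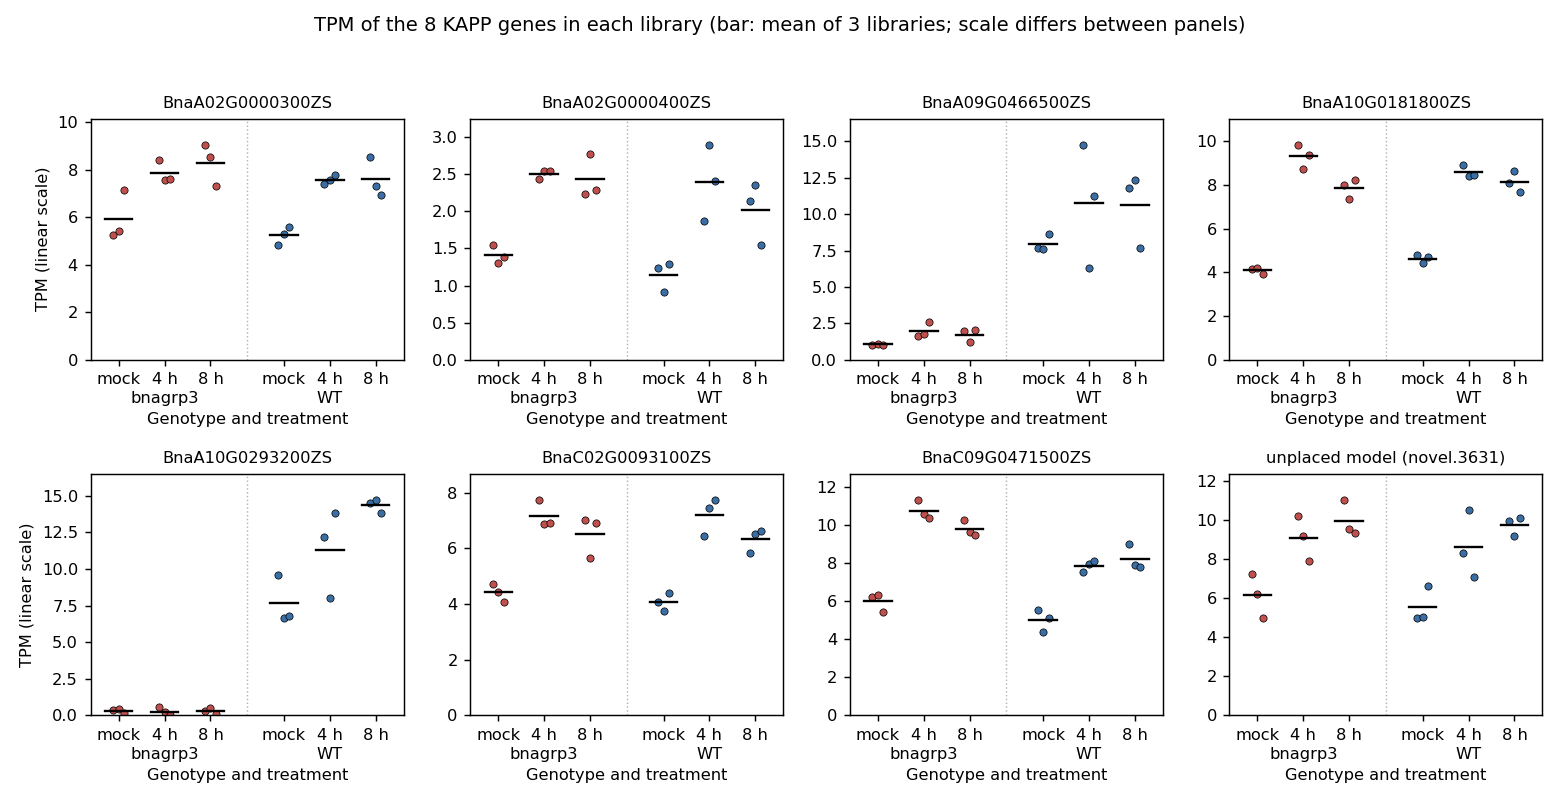
TPM of each of the 8 KAPP genes (linear vertical axis, scaled per panel) by genotype and treatment, with a bar for the mean of 3 libraries. BnaA10G0293200ZS is under 1 TPM in every bnagrp3 library and at 6.66 TPM or more in every WT library, and BnaA09G0466500ZS is at most 2.56 TPM in bnagrp3 and at least 6.33 TPM in WT.

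Wall-associated kinases were called in both directions after salt, with a share of rises near or below that of all genes. The share of falls was near that of all genes in bnagrp3 and above it in WT. Of 84 genes in the list, 30 could be tested, and after 8 h of NaCl 8 rose and 7 fell in bnagrp3, and 7 rose and 9 fell in WT, where 31.3% of all genes rose and 18.4% fell in bnagrp3, and 29% rose and 17.3% fell in WT. The median change of the list was -0.16 in bnagrp3 and 0.04 in WT, beside 0.14 for all genes. Between genotypes, 6 of the 30 were higher and 9 lower in bnagrp3 in mock, where 9.1% of all genes were higher and 12.4% lower. These counts, like the shares of all genes, take every gene kept by the filter. They include genes near 0 TPM in 1 genotype, which passed the filter through the other, so they are a description only. At 4 h 3 were higher and 9 lower, against 9.89% and 13.7% of all genes. At 8 h 6 were higher and 9 lower, against 11.4% and 12%. Of the 5 genes named WAK1, the kinase that GRP3 binds in Arabidopsis, an unplaced gene model was listed at 0 in all mock libraries, at 0.23, 0.24 and 0.18 TPM in bnagrp3 and 13.3, 8.3 and 11.1 TPM in WT at 4 h, and at 0.83, 0.78 and 0.98 TPM in bnagrp3 and 8.62, 17.6 and 13.4 TPM in WT at 8 h. No bnagrp3 library reached the WT values after salt. A second WAK1 gene, BnaC08G0265100ZS, had 2.95, 2.74 and 3.6 TPM in bnagrp3 mock, against 1.21, 0.64 and 0.74 TPM in WT mock. BnaC08G0437800ZS, a WAK-like 14 gene, rose by 0.79 in bnagrp3 and 0.76 in WT at 8 h (SE 0.09 each, limma adjusted p = 4.12e-06 and 6.58e-06). Among those that fell in WT, an unplaced WAK5 gene model averaged 0.44 ± 0.03 TPM at 8 h and 1.02 ± 0.20 TPM in mock in bnagrp3, and 2.80 ± 0.07 and 5.50 ± 0.67 TPM in WT (log2 change in WT -0.77, limma adjusted p = 0.0138). An unplaced WAK2 gene model was listed at 0 in bnagrp3 in mock and at 8 h, and averaged 1.34 ± 0.56 TPM at 8 h and 7.61 ± 3.59 TPM in mock in WT.

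Among other glycine-rich proteins more genes fell than rose after salt. Of 22 genes, 19 could be tested, and after 8 h of NaCl 3 were higher and 11 lower in bnagrp3, and 1 was higher and 13 lower in WT, with 5 not called in each genotype. Among all genes 31.3% were higher and 18.4% lower in bnagrp3, and 29% and 17.3% in WT. The median change of the list was -0.84 in bnagrp3 and -1.14 in WT, beside 0.14 for all genes. DOT1 (BnaC04G0104100ZS), a glycine-rich protein that shapes vein pattern in Arabidopsis, changed by -1.98 in bnagrp3 and -2.64 in WT on the log2 scale (SE 0.28 each, limma adjusted p = 3.59e-05 and 2.32e-06). A glycine-rich cell wall structural protein, BnaC01G0482900ZS, changed by -2.39 and -2.47 (SE 0.28 each, limma adjusted p = 5.93e-06 and 4.67e-06). Between genotypes, again over every gene kept by the filter, 6 of the 19 were lower and none higher in bnagrp3 in mock. Among all genes 12.4% were lower and 9.1% higher. The glycine-rich RNA-binding proteins share the name but are RNA-binding proteins inside the cell: of 35 tested among 52, 24 fell and 4 rose in bnagrp3 at 4 h, and 19 fell and 4 rose in WT, where 23.5% of all genes fell and 28.7% rose in bnagrp3, and 20.5% fell and 26% rose in WT. By 8 h 13 were lower and 5 higher in bnagrp3, where 18.4% of all genes were lower and 31.3% higher, and 7 were lower and 7 higher in WT, where 17.3% of all genes were lower and 29% higher. Among them BnaA02G0334400ZS rose by 1.05 in bnagrp3 and 1.13 in WT at 8 h (SE 0.12 each, limma adjusted p = 4.82e-06 and 2.57e-06), and BnaA01G0004500ZS changed by -1.02 and -0.90 (SE 0.19 each, adjusted p = 0.00034 and 0.00108). BnaC06G0406100ZS averaged 4.04 ± 1.31 TPM in bnagrp3 and 36.8 ± 9.04 TPM in WT at 8 h, and an unplaced model of glycine-rich RNA-binding protein 2 changed by -2.23 in bnagrp3 and -1.21 in WT (SE 0.29 each, limma adjusted p = 1.74e-05 and 0.00326).

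Across the 18 libraries, which share the 6 groups, BnaA03G0387800ZS was most like BnaC03G0480300ZS (Pearson r = 0.975 of log2(TPM + 1)). Outside the 10 genes, among 13038 with a mean of at least 10 TPM and a description, those closest to it were TMN8 (BnaA10G0240000ZS, r = 0.971), the arabinofuranosidase ASD1 (BnaA01G0377300ZS, r = 0.965) and UBP1A (BnaC06G0083700ZS, r = 0.963). BnaA07G0050000ZS was closest to PDIL1-1 (BnaA07G0126800ZS, r = 0.975), FHY1 (BnaA05G0077000ZS, r = 0.973) and CTR1 (BnaC03G0194700ZS, r = 0.971). Within the GRP3 genes, the unplaced model ran with BnaA07G0050000ZS (r = 0.947) and against Bnascaffold0025G0035900ZS (r = -0.667). These coefficients describe the libraries and carry no test.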

How the data were processed

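The deposited table holds TPM per gene and library for 18 poly(A) RNA-seq libraries, as TPM per the file headers. Read trimming, alignment and counting tools named in the submitters' processing notes are fastp, HISAT2 and featureCounts, with no version; the genome build, annotation, strand setting and handling of shared reads are not stated. Depth is unknown. The members and gene lists were chosen with earlier results of these data known. Genes at 1 TPM in at least 3 libraries were kept (57923), and log2(TPM + 1) was fitted for all 18 libraries with 1 mean per group in limma 3.58.1 (R 4.3.3, trend), two-sided, with Benjamini-Hochberg adjustment over all genes kept and a call at 0.05. A member's p is given where each group compared has at least 2 libraries at 1 TPM. Counts of the gene lists and of all genes take every gene kept, without this rule. The procedure was tested on simulated data. Named genes are the 10 members, the named neighbours within 5 identifiers, of each list up to 2 rises and 2 falls in WT at 8 h with a mean of 5 TPM and no overlap, and the 3 genes most like each of 2 members; the 2 WAK1 genes, BnaA09G0466500ZS and the neighbours were named after their values were seen. Alternatives were a pseudocount of 0.1 TPM, no filter, a filter of 5 TPM, 2 rescalings, a fit of the groups compared alone, a replicate block and leaving out libraries. Figures used matplotlib 3.10.9 in Python 3.11.15. Sequences were not used here.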

Additional observations from a re-analysis of the deposited data

Results flagged for a closer look

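The salt response of Bnascaffold0025G0035900ZS differed between the genotypes in a direct test. After 8 h of NaCl its log2 change exceeded that of WT by 3.38 in bnagrp3 (SE 0.52, limma adjusted p = 0.00476), with all 3 bnagrp3 libraries at 122 to 160.2 TPM and all 3 WT libraries at 3.58 to 5.5 TPM.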

How the results depend on the processing

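Depth is unknown, 1 mutant line was used and each group has 3 libraries. No member changed direction among called results under any alternative. The count of called members moved most in the comparison of 8 h with 4 h in WT. There 6 members were called, against 2 with no filter, 3 under median-of-ratios rescaling, 3 under quantile normalisation and 0 with the groups compared alone. The count was 3 with both WT 4 h replicate 2 and WT 8 h replicate 3 left out, and 3 to 6 when 1 library was left out. For NaCl 4 h against mock in WT, 5 were called, against 3 with a pseudocount of 0.1 TPM, 3 with the groups compared alone, and 3 to 6 when 1 library was left out. For bnagrp3 against WT at 4 h, 3 were called, against 5 without those 2 WT libraries and 2 to 5 when 1 library was left out. The difference of the 4 h responses gave 0 calls, and 0 to 1 when 1 library was left out. The cause was not tested. The pool at 8 h was 4521 TPM in bnagrp3 and 8308 TPM in WT under median-of-ratios rescaling, and without the unplaced gene model the WT pool was 3203 TPM in mock, 4763 TPM at 4 h and 6889 TPM at 8 h. Same-numbered libraries did not deviate together (45 pairs, r from -0.43 to 0.07), so no pairing by number was seen in the values. This cannot show whether same-numbered plants were grown or handled together. With a replicate block the calls of members, among them 5 for bnagrp3 against WT in mock, stayed the same except 1 lost and 1 gained. BnaA07G0050000ZS was lost from 4 h to 8 h in WT (limma adjusted p = 0.0582). Bnascaffold0025G0035900ZS was gained in WT at 8 h against mock (limma adjusted p = 0.0465).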
